A study of Mus musculus with 9 samples.

Results

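The 32 genes described here make the myelin of the brain or mark the mature oligodendrocyte that builds it. They were taken by symbol from the deposited hippocampal table of 18275 genes, where a mean of 10 or more over the 9 libraries was asked of them, and all 32 met that minimum. They comprised 13 structural myelin proteins, 6 lineage transcription factors, 4 lipid enzymes and 9 other oligodendrocyte genes. The libraries came from 4 Nestin;BrafKE/+ mice and 5 Braf+/+ littermates, adult males of 11 to 15 weeks labelled C57BL/6N, with 1 library from the hippocampus of each animal. Nestin;BrafKE/+ mice (mutant below) carry 1 Cre-dependent knock-in allele of the kinase Braf, listed by the labels as K499E, and Nestin-Cre recombines it in neural stem cells. Neurons, astrocytes and oligodendrocytes of these mice therefore all descend from such cells, so a difference in 1 cell type cannot be assigned to the allele acting in that type. The labels do not say whether the Braf+/+ mice (control below) carry Cre. A table of values per gene cannot show the allele itself.

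Oligodendrocytes wrap axons in a compacted membrane sheath, the myelin, whose lipids come from dedicated enzymes and whose layers are held by a small set of very abundant proteins. Transcription factors of the Olig, Sox and Nkx families set up the lineage, and Myrf then drives the myelin genes when a precursor matures. Braf signals through MEK and ERK, a cascade known to act both on the precursors and on myelin growth. The comparison asks whether transcripts of this lineage differed between genotypes, and whether the sheath proteins, the factors that specify the lineage and the enzymes that make its lipids differed alike.

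The values were normalised counts that the authors had adjusted for batches and summed to between 19551312 and 20091532 per library, so the depth behind a value is unknown. The library names begin with 4 prefixes (84, 85, HPC and NES), grouped here into 3 series. Series A joins prefix 84 (control replicates 1 and 2, without a mutant) with prefix 85 (mutant replicate 1 and control replicate 3). Series A held mutant replicate 1 and control replicates 1, 2 and 3, series B held mutant replicates 2 and 3 and control replicate 4, and series C held mutant replicate 4 and control replicate 5. Markers of hippocampal neurons and of oligodendrocytes were present in every library, with Slc17a7 at 20055 ± 1246 (SD, n = 4) in mutants and 21463 ± 1286 (SD, n = 5) in controls. Control replicates 2 and 4 stood apart in choroid plexus genes, whose 12 listed members summed to 1605 to 25167 in mutants and 5485 to 396711 in controls. The choroid plexus is the epithelium in the ventricle beside the hippocampus that secretes cerebrospinal fluid.

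Myelin and oligodendrocyte transcripts were mostly higher in the mutant hippocampus. Of the 32 genes, 29 were higher and 3 lower, and 9 rose past an adjusted p of 0.05, which is 28.1% against 1.52% of all 16196 genes tested. These were Gjb1, Pmp22, Mobp, Mog, Mag and Cldn11 among the structural proteins, and Apod, Trf and Sirt2 among the other genes. No gene of the 32 fell past the threshold in limma, against 1.36% of all genes (2.88% passed in either direction), and 21 had an unadjusted p under 0.05, against 18.5% of all genes. Every mutant library lay above every control for 14 of the 32, where 7.62% of all genes did so, and none lay wholly below, where 8.13% did. The median log2 fold change was 0.25 over the 32 genes and 0.00 over all genes tested. In whole tissue, more oligodendrocytes and more of these transcripts per oligodendrocyte cannot be told apart from these values. By staining of sections, the study reported unchanged numbers of Olig2-positive cells in the hippocampus and cortex of this mutant line. The number of the 32 that rose changed when single libraries were left out. It was 2 without mutant replicate 1, 3 without control replicate 4, 4 without mutant replicate 3 and 5 without mutant replicate 2. Over all genes the same fits called 42, 97, 165 and 323, against 466 with all libraries. Mutant replicate 1 is the only mutant of series A and control replicate 4 the only control of series B. Leaving out either also takes that series out of the genotype comparison. With control replicates 2 and 4, high in choroid plexus genes, both left out, as decided after the data had been seen, Pmp22 (adjusted p = 0.0308) and Apod (0.0121) passed, the median log2 fold change was 0.22, and series B had no control left.

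**Figure D1:**
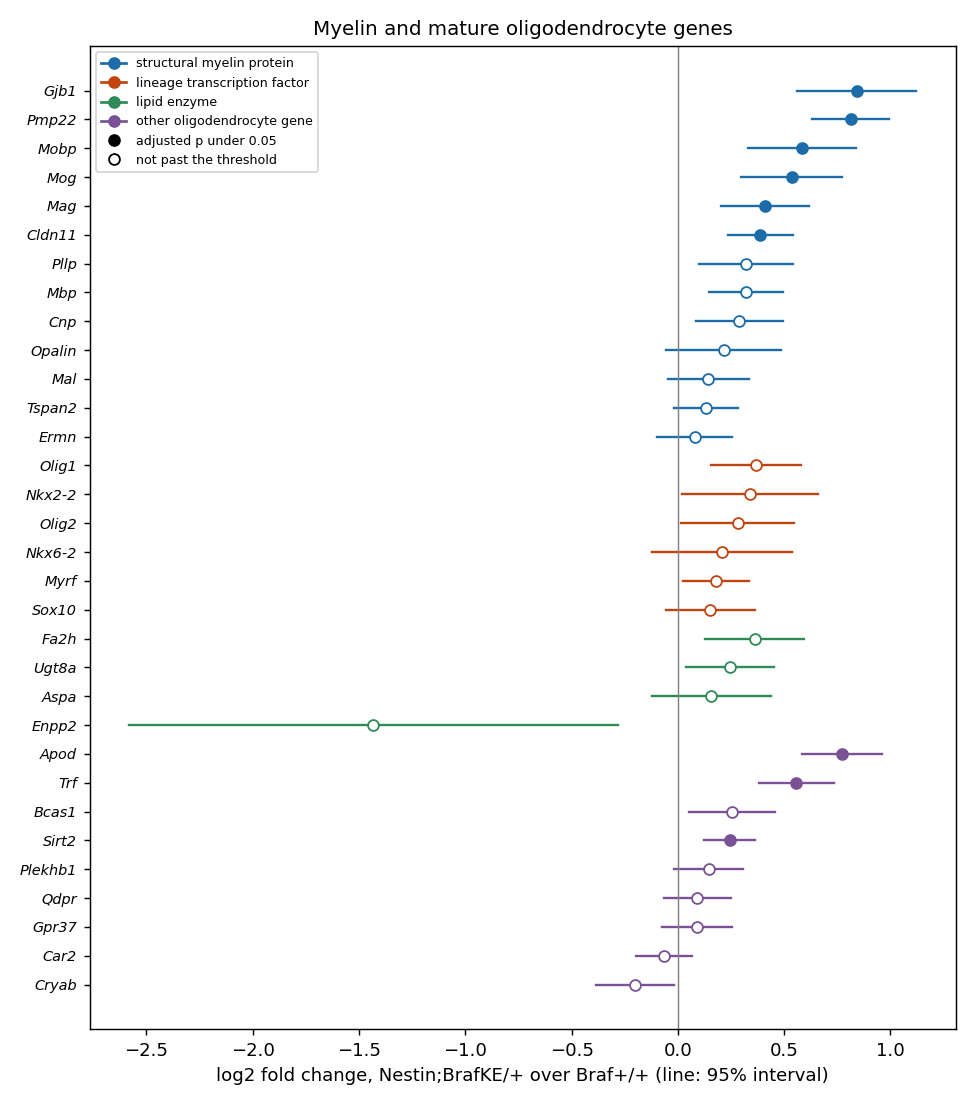
Log2 fold change (mutant over control) of each of the 32 genes with its 95% confidence interval, grouped by role, with filled points for genes past an adjusted p of 0.05. All 13 structural myelin proteins lie above 0, Gjb1 highest at 0.84, and the lipid enzyme Enpp2 stands alone at -1.43 with the widest interval.

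Among structural proteins all 13 were higher and 6 rose (46.2%, against 1.52% of all genes tested). Gjb1 (ENSMUSG00000047797, chromosome X, 100419984 to 100429547 in GRCm39) encodes connexin 32, which forms gap junctions within the layers of the sheath. Its values were 375, 388, 345 and 310.1 in mutant replicates 1 to 4 and 188, 171, 224, 184 and 224 in control replicates 1 to 5. The lowest mutant lay well above the highest control, and the fold change of 0.84 in log2 units (SE 0.13, adjusted p = 0.00803) was the largest increase of the 32. Pmp22 (ENSMUSG00000018217, chromosome 11, 63019718 to 63050600), a tetraspan membrane protein best known from the myelin of peripheral nerve, had values of 538, 588, 600 and 616 in mutants. Its control values were 339.8, 358, 328, 322 and 316, so the groups were far apart, with a fold change of 0.81 in log2 units (SE 0.08, adjusted p = 0.00177). Among mutants replicate 4 was its highest, whereas replicate 4 was the lowest mutant for Gjb1 and for the 4 sheath proteins that follow. The count of 6 was 1 without mutant replicate 1 or control replicate 4, 2 without mutant replicate 3 and 3 without mutant replicate 2.

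Mobp (ENSMUSG00000032517, chromosome 9, 119973770 to 120011273) encodes a small basic protein of compact myelin. Its mutant values were 19336, 18865, 19447 and 14998, against 10517, 12164, 12724, 10714 and 14510.3 in controls. Mutant replicate 4 stood well below the other mutants and only just above control replicate 5 of the same series, while the fold change of 0.58 in log2 units (SE 0.11, adjusted p = 0.0253) passed the threshold. Mog (ENSMUSG00000076439, chromosome 17, 37321521 to 37334350), a glycoprotein of the outermost layer of the sheath, ran at 1828, 1709, 1746 and 1497 in mutants and 986, 1094, 1356, 1118 and 1318 in controls. The groups did not overlap, again with mutant replicate 4 lowest among mutants, and the fold change of 0.53 in log2 units (SE 0.11, adjusted p = 0.0278) was close to that of Mobp. The predicted gene Gm38642 lies on the strand of Mobp, so some reads of Mobp may belong to it.

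Mag (ENSMUSG00000036634, chromosome 7, 30598464 to 30614474) is the adhesion molecule of the innermost layer facing the axon. Its values of 4045, 4247, 4486 and 3950.3 in mutants and 3039, 2782, 3786, 2881 and 3327 in controls were separated only narrowly, control replicate 3 being high. The fold change of 0.41 in log2 units (SE 0.09, adjusted p = 0.0457) was the one nearest to the threshold among the 9. Cldn11 (ENSMUSG00000037625, chromosome 3, 31203900 to 31218495), the claudin that seals the layers with tight junctions, had values of 3509.8, 3321, 3316 and 3194 in mutants and 2236, 2541, 2759, 2572 and 2661 in controls. Mutant libraries were close together and all above the controls, with a fold change of 0.39 in log2 units (SE 0.07, adjusted p = 0.0177).

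**Figure D2:**
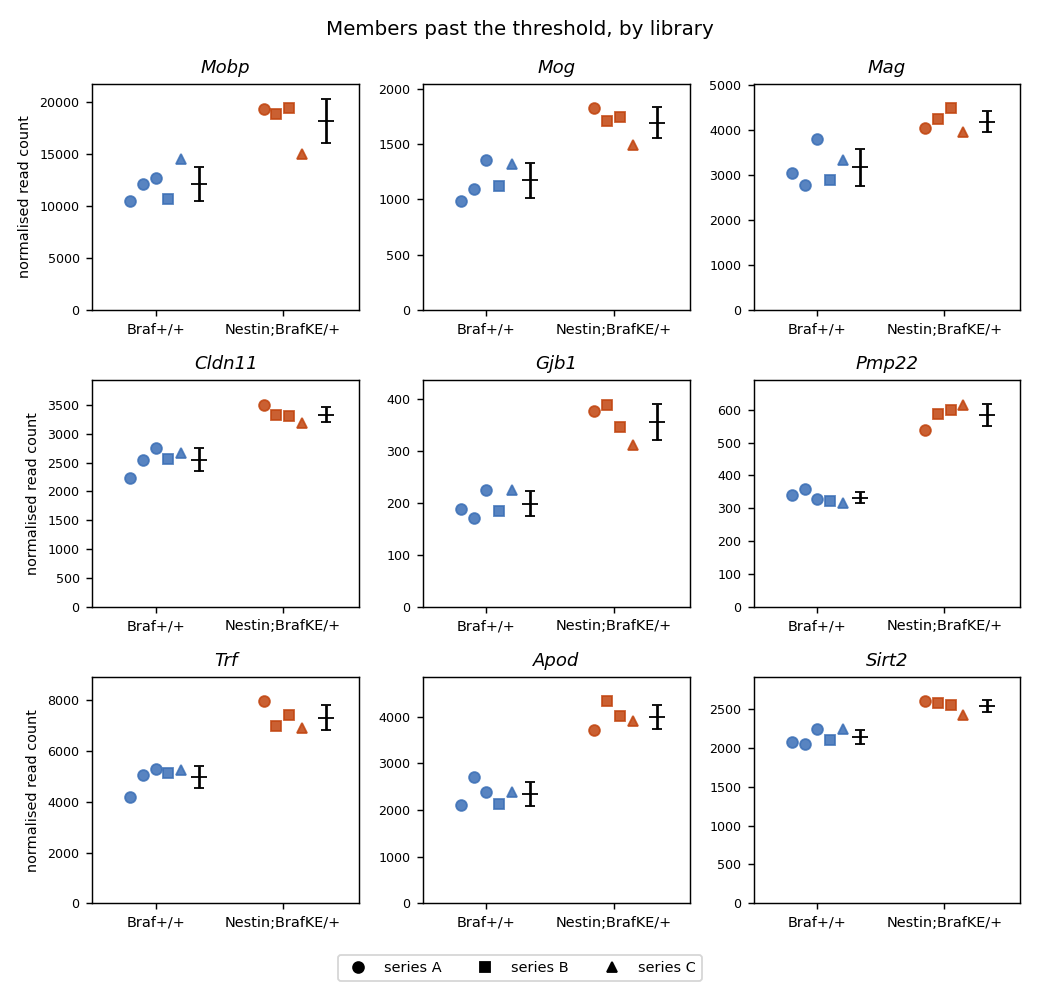
Normalised value (linear axis from 0) in each of the 9 libraries for the 9 genes past the threshold, with the group mean and SD. In each panel the 4 mutant libraries lie above the 5 controls, and for Mobp the lowest mutant and highest control are 14998 and 14510.3.

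The other 7 structural proteins did not pass. Mbp, the basic protein that compacts the sheath, had values of 40608, 43064, 47239 and 41174 in mutants. Its controls were at 31434, 37076, 36906, 31219 and 35916, all below the mutants, and the log2 fold change of 0.32 had a 95% interval of 0.15 to 0.49 and an adjusted p of 0.0577. Mbp thus fell just short of the threshold while separating the groups fully. Cnp, a phosphodiesterase that keeps cytoplasm-filled channels open in myelin, was at 7679, 7123, 8209 and 7157 in mutants and 5309, 5883, 7326, 5977 and 6486 in controls. Control replicate 3 lay among the mutants, and the log2 fold change was 0.29 (adjusted p = 0.132). Mal, a proteolipid of lipid-rich membrane domains, was at 5919, 5232, 6223 and 5168 in mutants and 4488, 4979.8, 5582, 4935 and 5536 in controls. Its groups overlapped, with a log2 fold change of 0.14 (95% interval -0.05 to 0.33, adjusted p = 0.42). Tspan2, a tetraspanin, was at 3420.4, 3071, 3609 and 3491 in mutants and 2856, 3094, 3312, 3212 and 3007 in controls. Its mutant replicate 2 lay below 3 of the 5 controls, and the log2 fold change was 0.13 (adjusted p = 0.329). Pllp (plasmolipin) separated the groups at a log2 fold change of 0.32 (adjusted p = 0.123). Opalin, a membrane glycoprotein of oligodendrocytes, was at 0.22 (adjusted p = 0.386), and Ermn, a cytoskeletal protein of late myelination, at 0.08 (adjusted p = 0.643), and both overlapped.

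Sequence upstream of the transcription start is shown for 5 of the 9 genes that rose, Mobp and Mog as sheath proteins of the brain and Gjb1, Pmp22 and Apod as the 3 largest changes. The windows are the 250 bases before the start of the canonical transcript in Gencode vM39 on GRCm39, cut for Mobp to the 191 bases before an alternative first exon, and are written 5′ to 3′ on the strand of the gene. Those of Mobp, Gjb1, Pmp22 and Apod lie in introns of longer transcripts of the same gene, and that of Mog is intergenic. Capitals mark ACAAAG or AACAAT, letters that Sox factors bind, and CTGGCAC or CTGGTAC, letters that Myrf binds, each read on both strands, so that CTTTGT and GTACCAG are also marked.
Mobp (chr9:119978493-119978683, plus strand): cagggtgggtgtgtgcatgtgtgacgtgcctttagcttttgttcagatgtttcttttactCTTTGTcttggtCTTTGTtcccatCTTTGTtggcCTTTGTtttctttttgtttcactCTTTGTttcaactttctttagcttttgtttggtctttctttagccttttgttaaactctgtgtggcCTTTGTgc
Mog (chr17:37334351-37334600, minus strand): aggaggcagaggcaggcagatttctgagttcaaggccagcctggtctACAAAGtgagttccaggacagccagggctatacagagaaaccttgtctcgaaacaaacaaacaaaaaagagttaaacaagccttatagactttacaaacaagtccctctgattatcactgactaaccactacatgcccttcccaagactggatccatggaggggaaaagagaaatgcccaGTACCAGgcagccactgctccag
Gjb1 (chrX:100420624-100420873, plus strand): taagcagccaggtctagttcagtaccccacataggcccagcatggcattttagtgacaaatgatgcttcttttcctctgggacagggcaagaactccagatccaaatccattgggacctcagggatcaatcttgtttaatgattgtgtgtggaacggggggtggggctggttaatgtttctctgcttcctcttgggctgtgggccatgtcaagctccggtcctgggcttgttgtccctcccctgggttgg
Pmp22 (chr11:63021367-63021616, plus strand): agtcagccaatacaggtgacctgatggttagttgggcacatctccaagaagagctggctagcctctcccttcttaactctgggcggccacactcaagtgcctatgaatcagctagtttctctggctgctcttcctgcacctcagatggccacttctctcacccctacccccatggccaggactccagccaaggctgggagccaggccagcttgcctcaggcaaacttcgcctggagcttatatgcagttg
Apod (chr16:31133654-31133903, minus strand): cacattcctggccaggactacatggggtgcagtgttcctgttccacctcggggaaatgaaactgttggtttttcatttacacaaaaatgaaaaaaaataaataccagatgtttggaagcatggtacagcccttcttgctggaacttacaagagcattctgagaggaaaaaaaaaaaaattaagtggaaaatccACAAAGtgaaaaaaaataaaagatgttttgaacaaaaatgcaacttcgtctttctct
The Mobp window held 6 marked runs, all CTTTGT, Mog held 1 of each kind, Apod held 1 and Gjb1 and Pmp22 held none. A Sox match was present in 14 of the 32 windows (43.8%) and in 19.4% of 16133 windows of all genes tested. It was present in 4 of the 9 genes that rose (44.4%) and in 43.5% of the others. None of the motifs contains another, though the E-box can share 3 letters with a Myrf match. A Myrf match was present in 4 of 32 (12.5%, against 5.88% of all windows), of which 2 were among the 9 genes that rose (22.2%) and 2 among the others (8.7%). The E-box CAGCTG was present in 3 of 32 (9.38%, against 11.6%), of which 1 was among the 9 (11.1%) and 2 among the others (8.7%). The median GC content was 53.6% for the 32 and 56% for all windows. A match of letters is a description of the window and not a site of binding.

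None of the 6 lineage transcription factors passed in limma, although 6 of 6 were higher. An unadjusted p under 0.05 was found for 4 of the 6, against 18.5% of all genes tested. Olig1, a basic helix-loop-helix factor of precursors and mature cells, had values of 2828, 2435, 2900.2 and 2452 in mutants. Its controls were at 1833, 1857, 2354, 2031 and 2209.9, all lower, with a log2 fold change of 0.37 (95% interval 0.16 to 0.58, adjusted p = 0.0696). Olig1 was the closest of the 6 to the threshold, and passed it without control replicate 3 (adjusted p = 0.0465). Olig2, which specifies the lineage, was at 709.8, 619.9, 702 and 562 in mutants and 487, 458, 608, 509 and 611 in controls. Mutant replicate 4 lay below control replicates 3 and 5, and the log2 fold change was 0.28 (95% interval 0.02 to 0.55, adjusted p = 0.243). Sox10, which acts through precursor and myelinating stages, was at 867, 965, 911 and 869 in mutants and 705, 825, 952, 752 and 842 in controls. Control replicate 3 was lower only than mutant replicate 2, and the log2 fold change was 0.15 (95% interval -0.06 to 0.36, adjusted p = 0.429). Myrf, the factor that switches on the myelin genes, was at 1441, 1344, 1463 and 1375 in mutants and 1159, 1159, 1378, 1244 and 1267 in controls. Control replicate 3 lay above mutant replicates 2 and 4, and the log2 fold change was 0.18 (95% interval 0.03 to 0.34, adjusted p = 0.2). The homeodomain factors Nkx2-2 and Nkx6-2 were at 0.34 (adjusted p = 0.244, no overlap) and 0.21 (adjusted p = 0.502).

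Of the 4 lipid enzymes 3 were higher and 1 lower, none past the threshold in limma. At an unadjusted p under 0.05 were 3 of the 4, against 18.5% of all genes tested. Ugt8a makes galactosylceramide, the main glycolipid of myelin, and its values were 1556, 1312, 1464 and 1399 in mutants and 1082, 1072, 1382, 1284 and 1232 in controls. They overlapped through control replicate 3, and the log2 fold change was 0.25 (adjusted p = 0.191). Fa2h hydroxylates the fatty acids of those lipids and was at 885, 761, 814 and 782 in mutants and 553, 555, 741, 666 and 653 in controls. It separated the groups without passing the threshold, at 0.36 (95% interval 0.13 to 0.59, adjusted p = 0.0989). Aspa, which releases acetate for lipid synthesis from N-acetylaspartate, was at 395, 405, 414 and 452 in mutants and 318, 357, 479.9, 385 and 343 in controls. Control replicate 3 was the highest of the 9 libraries and the other controls lay below every mutant, and the log2 fold change was 0.16 (adjusted p = 0.55).

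Enpp2 (autotaxin), a secreted enzyme that makes lysophosphatidic acid, is expressed both by oligodendrocytes and by the choroid plexus. Its values were 14350.4, 3521, 7279 and 8561 in mutants and 10032, 35346, 12118, 44261 and 17693 in controls. Control replicates 2 and 4 were the highest, and these are also the libraries highest in choroid plexus genes, with Ttr, the transthyretin of that epithelium, at 381593 and 106681. Mutant replicate 2 was lowest both in Enpp2 and in the summed choroid plexus genes. The log2 fold change of Enpp2 was -1.43 (SE 0.52, 95% interval -2.58 to -0.28, adjusted p = 0.173), and it was -0.53 (adjusted p = 0.691) without control replicate 4. With control replicates 2 and 4 both left out it was -0.23 (SE 0.34, adjusted p = 0.827). All 12 choroid plexus genes were lower in mutants, with a median log2 fold change of -1.51 and none past the threshold in limma. Of the 12, 5 had an unadjusted p under 0.05, against 18.5% of all genes tested. Only Kl did not overlap, where 8.13% of all genes lay wholly below. How much of the Enpp2 value comes from oligodendrocytes was not tested.

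**Figure D3:**
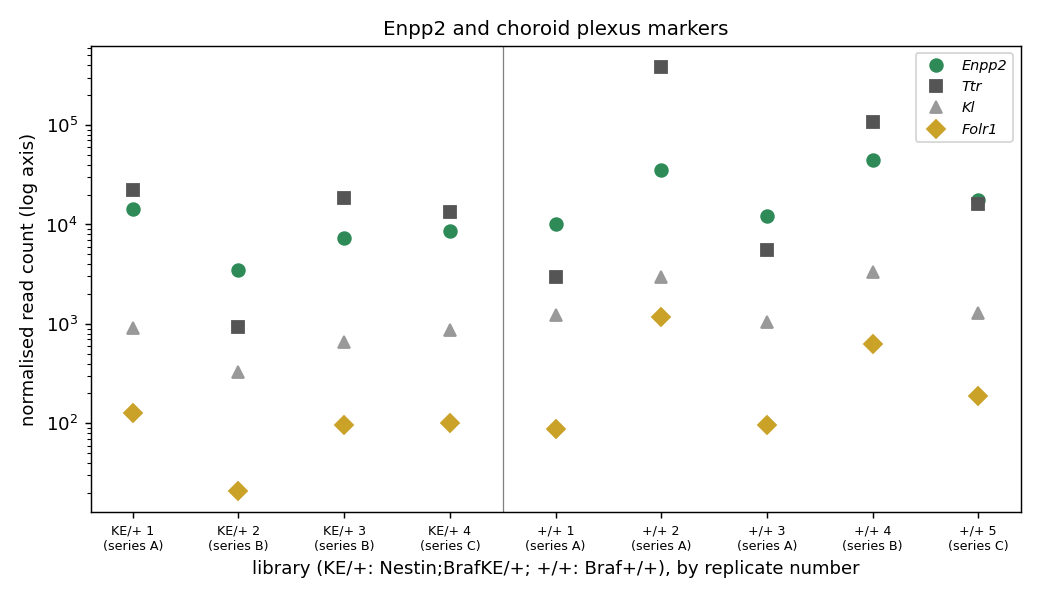
Normalised value (log axis) of Enpp2 and of the choroid plexus markers Ttr, Kl and Folr1 in each library, mutants left and controls right of the line. Enpp2 is highest in control replicates 2 and 4 (35346 and 44261), where the markers are also highest, and lowest in mutant replicate 2 (3521), where they are lowest.

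Of the 9 other oligodendrocyte genes, 3 rose (33.3%, against 1.52% of all genes tested) and 6 did not pass. Apod (ENSMUSG00000022548, chromosome 16, 31115010 to 31135355) encodes apolipoprotein D, a lipid carrier of mature oligodendrocytes that astrocytes and fibroblasts also make. Its values were 3708, 4328, 4022 and 3902 in mutants and 2098, 2709, 2390.3, 2127 and 2381 in controls. The groups were widely separated, with a fold change of 0.77 in log2 units (SE 0.09, adjusted p = 0.00223). Trf (ENSMUSG00000032554, chromosome 9, 103081200 to 103107814) encodes the iron carrier transferrin, made in the brain by oligodendrocytes and choroid plexus, and was at 7971, 6985, 7415 and 6925 in mutants and 4213, 5053, 5282, 5135 and 5252 in controls. Control replicate 1 was lowest, control replicates 2 and 4 with their high choroid plexus genes lay between the others, and the fold change of 0.56 in log2 units (SE 0.08, adjusted p = 0.0065) passed. Sirt2 (ENSMUSG00000015149, chromosome 7, 28466160 to 28488090), a deacetylase found in myelin, was at 2601, 2578, 2555 and 2428 in mutants and 2081, 2053, 2242, 2100 and 2243 in controls. It showed the smallest change of the 9, a fold change of 0.24 in log2 units (SE 0.05, adjusted p = 0.0418), with little spread within either group.

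Plekhb1, a membrane-associated protein with a pleckstrin homology domain, was at 5329.9, 5245, 5709.6 and 5159.7 in mutants and 4241, 5159, 5221, 4648 and 5036 in controls. It overlapped only at the edge, and the log2 fold change was 0.14 (adjusted p = 0.325). Car2, a carbonic anhydrase, was at 3765, 3681, 3611 and 3775 in mutants and 3536, 3828, 4221, 4009 and 3807 in controls. It was one of the 3 genes lower in mutants, at -0.06 (95% interval -0.20 to 0.07, adjusted p = 0.616), with overlapping groups. Qdpr, which recycles tetrahydrobiopterin, was at 3050, 3280.3, 3354 and 3313 in mutants and 2800, 3070.5, 3496, 2923 and 2989 in controls. Control replicate 3 was the highest of the 9 libraries, and the log2 fold change was 0.09 (adjusted p = 0.54). Bcas1, which marks oligodendrocytes that are starting to myelinate, was at 2513, 2129, 2677 and 2216 in mutants and 1725, 2026, 2122, 1967 and 2131 in controls. Mutant replicate 2 lay within the controls, and the log2 fold change was 0.25 (adjusted p = 0.169). Gpr37, a receptor of maturing oligodendrocytes, was at 0.09 (adjusted p = 0.557), and the small heat shock protein Cryab was at -0.20 (95% interval -0.39 to -0.02, adjusted p = 0.231).

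The roles were then set side by side. The median log2 fold change was 0.32 for structural proteins, 0.24 for transcription factors, 0.20 for lipid enzymes and 0.14 for the other genes. To give each role 1 level per library, every gene's log2 values were centred on their mean and then averaged across the genes of that role. The level of structural proteins was 0.24, 0.19, 0.29 and 0.14 in mutant replicates 1 to 4 and -0.34, -0.20, -0.01, -0.22 and -0.09 in control replicates 1 to 5, without overlap. The level of transcription factors was 0.22, 0.12, 0.20 and 0.03 in mutants and -0.30, -0.21, 0.09, -0.14 and -0.0037 in controls. There control replicate 3 lay above mutant replicate 4. Lipid enzymes were at -0.09 ± 0.25 (SD, n = 4) in mutants and 0.07 ± 0.27 (SD, n = 5) in controls, a level that carries the spread of Enpp2.

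**Figure D4:**
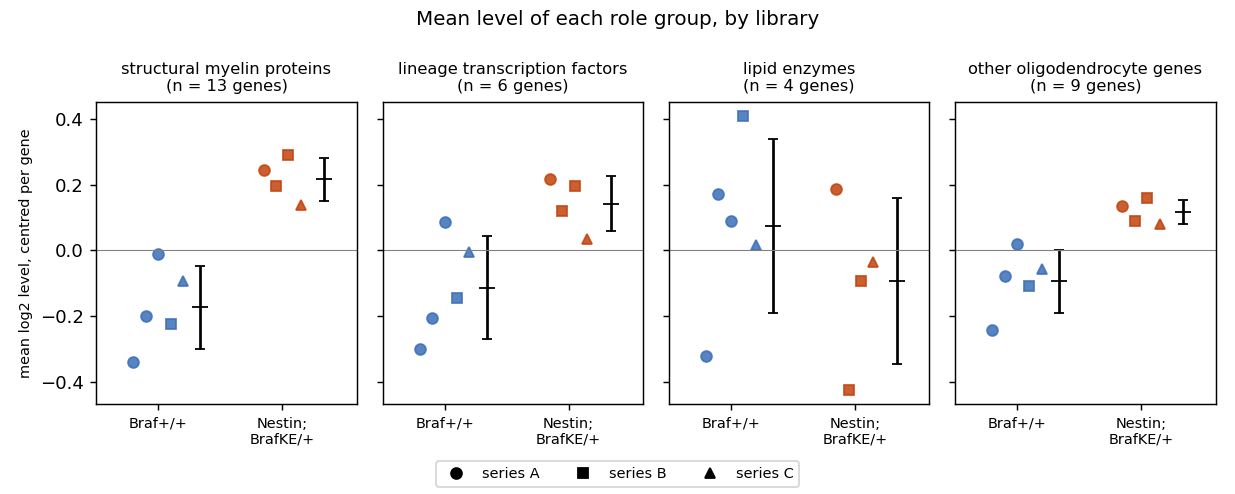
Level of each role group in each library (mean log2 value relative to each gene's mean over 9 libraries), with group means and SD. Structural proteins are at 0.22 ± 0.07 in mutants and -0.17 ± 0.13 in controls without overlap, while transcription factors are at 0.14 ± 0.08 and -0.11 ± 0.16 with overlap.

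Within a library the structural level can be set against the level of the transcription factors, which removes what both share. This difference in log2 level was 0.03, 0.08, 0.09 and 0.10 in mutants and -0.04, 0.01, -0.10, -0.08 and -0.09 in controls. Mutants were all higher. The structural level includes Gjb1 and Pmp22, the largest changes of that role (0.84 and 0.81 in log2 units), and the difference without them was not examined. No p is given because the members were chosen with results known. The same libraries were often at the ends of the range, control replicate 1 being the lowest of the 9 libraries for 22 of them and mutant replicates 3 and 1 the highest for 12 and 9. Control replicate 3 was the highest library for 6 genes, none of them among those that rose.

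Within the series the direction was kept for most genes. The mutant mean was above the control mean in all 3 series for 25 of 32 genes, against 18.3% of all genes tested, and for 12 of the 13 structural proteins and 4 of the 6 factors. Differences in mean log2 value in series A, B and C were 0.96, 0.99 and 0.47 for Gjb1. They were 0.65, 0.88 and 0.96 for Pmp22 and 0.72, 0.84 and 0.05 for Mobp, close to 0 in series C. For Mog, Cldn11, Mag and Sirt2 series C gave the smallest difference, at 0.18, 0.26, 0.25 and 0.11, against 0.29 to 0.69 in the other series. Apod gave 0.64, 0.97 and 0.71. Trf gave 0.72, 0.49 and 0.40. Olig2, Nkx6-2 and Mal were lower in the mutant of series C, at -0.12, -0.14 and -0.10. Series C gave the smallest of the 3 differences for 21 of 32 genes, but it holds 1 library per genotype. In limma's test of a genotype by series interaction no gene of the 32 passed, the lowest adjusted p being 0.403, while 2 had an unadjusted p under 0.05 (the lowest 0.00269, for Mobp), against 8.22% of all genes, and 5 of all genes tested passed (0.0309%).

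**Figure D5:**
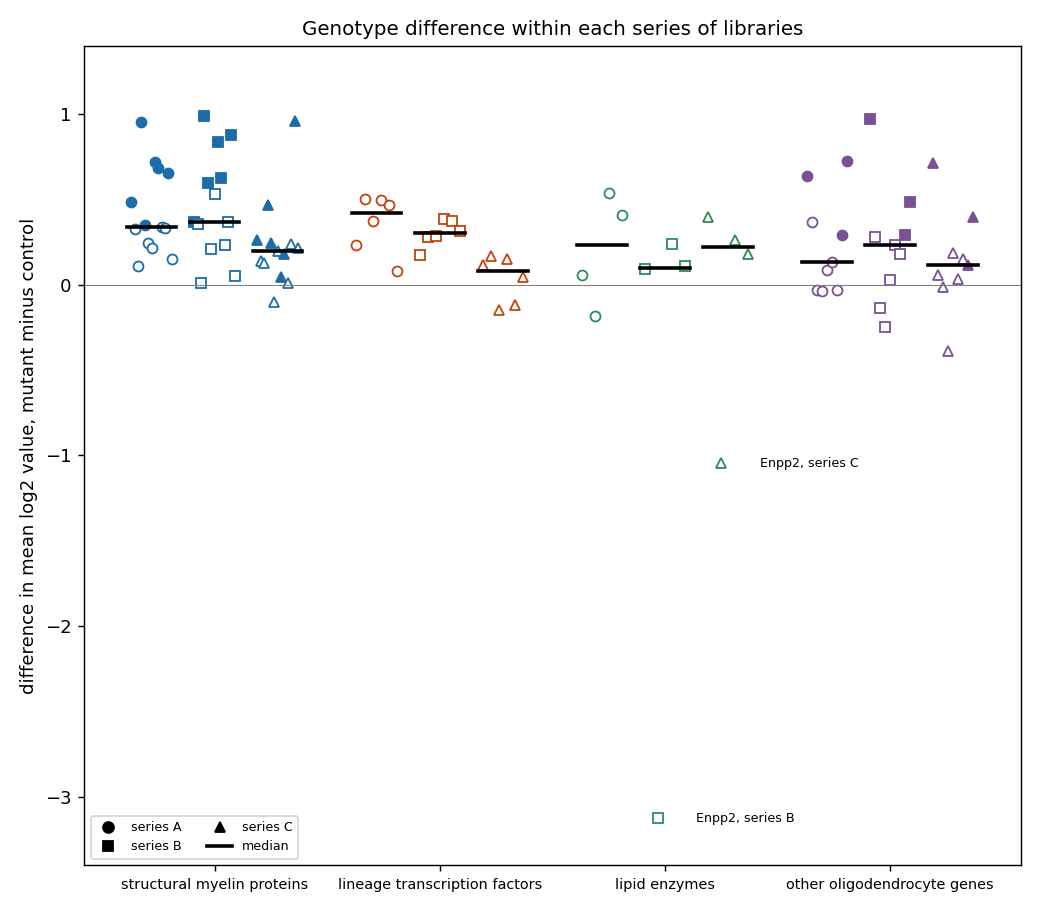
Mutant minus control difference in mean log2 value within series A, B and C for each gene, grouped by role, with filled symbols for genes past the threshold and bars for medians. Structural medians are 0.34, 0.37 and 0.20, and those of transcription factors are 0.42, 0.30 and 0.08.

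The 9 genes differed in the fits that each left out 1 library. Leaving out mutant replicate 1, control replicate 4 or either library of series C also takes that series out of the genotype comparison. Pmp22 and Apod passed in all 9 fits that each left out 1 library, with the highest adjusted p at 0.0201 and 0.0231. Trf did not pass without mutant replicate 1 (0.0763), where the value in brackets is the adjusted p. Gjb1 did not pass without mutant replicate 1 (0.0863) or control replicate 4 (0.0709). Cldn11 lost its call without mutant replicate 1 (0.138), mutant replicate 3 (0.0527) or control replicate 4 (0.0909). Mobp lost it without mutant replicate 1 (0.164), mutant replicate 2 (0.051), mutant replicate 3 (0.0726) or control replicate 4 (0.176). For Mog the call was lost without mutant replicate 1 (0.183), mutant replicate 2 (0.0557), mutant replicate 3 (0.0792), control replicate 2 (0.0509) or control replicate 4 (0.167). Sirt2 did not pass without mutant replicate 1 (0.199), mutant replicate 2 (0.081), mutant replicate 3 (0.111), control replicate 1 (0.0732), control replicate 2 (0.0705) or control replicate 4 (0.189). Mag passed in 1 of the 9 fits and failed without mutant replicate 1 (0.143), mutant replicate 2 (0.0844), mutant replicate 3 (0.117), mutant replicate 4 (0.0628), control replicate 1 (0.0797), control replicate 2 (0.0638), control replicate 4 (0.253) or control replicate 5 (0.0628).

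A list of 31 further genes of mature oligodendrocytes gave the rest of the lineage. Of these 27 were higher and 4 lower, with a median log2 fold change of 0.22. Of the 31, 6 rose (19.4%, against 1.52% of all genes tested). Every mutant lay above every control for 16, where 7.62% of all genes did so. Calls over all genes ran from 42 to 369 in the fits that left out 1 library. The count of 6 was 1 without mutant replicate 1, 2 without mutant replicate 3 or control replicate 4, 3 without mutant replicate 4 or control replicate 5, and 11 without control replicate 3. Hapln2, a link protein of the matrix at nodes of Ranvier, was at 829.6 ± 86.1 (SD, n = 4) in mutants and 410.3 ± 47.1 (SD, n = 5) in controls. Its fold change of 1.01 in log2 units (SE 0.11, adjusted p = 0.00215) was larger than any increase among the 32 genes and was past the threshold in all 9 fits that left out 1 library. Gsn (gelsolin, an actin-severing protein) rose by 0.66 on the log2 scale (adjusted p = 0.00291), and lost its call without mutant replicate 1 (0.0535). Tmem125, a transmembrane protein, rose by 0.75 (adjusted p = 0.0271). Gjc3, a connexin of the lineage, rose by 0.35 (adjusted p = 0.0229). Elovl1, which elongates very long fatty acids, rose by 0.51 (adjusted p = 0.0253). Tmem125 lost its call without mutant replicate 1 (0.143), mutant replicate 3 (0.0786), mutant replicate 4 (0.0775), control replicate 1 (0.0537), control replicate 4 (0.114) or control replicate 5 (0.0734). Gjc3 did so without mutant replicate 1 (0.133), mutant replicate 3 (0.0704), mutant replicate 4 (0.0612), control replicate 4 (0.104) or control replicate 5 (0.0606). Elovl1 did so without mutant replicate 1 (0.136), mutant replicate 2 (0.0534), mutant replicate 3 (0.0613) or control replicate 4 (0.133).

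Of 12 genes of oligodendrocyte precursors and committed precursors, 9 were higher and 3 lower, with a median log2 fold change of 0.17. Of the 12, 1 rose (8.33%, against 1.52% of all genes tested). That gene, Cspg4, encodes the NG2 proteoglycan of precursors and of pericytes. It was at 498 ± 15.9 (SD, n = 4) in mutants and 317 ± 9.66 (SD, n = 5) in controls, with a fold change of 0.65 in log2 units (SE 0.08, adjusted p = 0.00261), and passed in all 9 fits that left out 1 library. Pdgfra, the growth factor receptor that marks precursors, was at 0.27 (adjusted p = 0.0842), and Gpr17, of committed precursors, at -0.00169 (adjusted p = 0.994). The median of the list was 0.09 without mutant replicate 1 and 0.05 without control replicate 4. Among 12 enzymes of cholesterol synthesis, which supplies myelin with its main sterol, 0 passed in limma and 0 had an unadjusted p under 0.05, with log2 fold changes from -0.12 to 0.09. The most abundant, Hmgcs1, was at 0.04 (adjusted p = 0.674).

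Genes of other cells in or near the dissected tissue were examined beside these results. Of all genes tested 1.52% rose. Of 12 astrocyte genes 4 rose, Gfap by 0.68, S100b by 0.36, Aldoc by 0.35 and Atp1b2 by 0.27 on the log2 scale, with a list median of 0.26, close to that of the 32 genes. Gfap, S100b and Aldoc are genes that the study named from these libraries. Gfap did not pass without mutant replicate 1 (0.0742) or control replicate 4 (0.0525), where the adjusted p is in brackets. Aldoc did not pass without mutant replicate 1 (0.0742) or control replicate 4 (0.069), S100b without mutant replicate 1 (0.134), mutant replicate 2 (0.0505), mutant replicate 3 (0.0713), control replicate 1 (0.051) or control replicate 4 (0.158), and Atp1b2 without mutant replicate 1 (0.119), mutant replicate 3 (0.0669), mutant replicate 4 (0.0666), control replicate 4 (0.0662) or control replicate 5 (0.067). Of 9 meningeal fibroblast genes only Col1a1, a fibrillar collagen, rose, by 0.96 (adjusted p = 0.0214), and it did not pass without mutant replicate 1 (0.0826), mutant replicate 3 (0.0653) or control replicate 4 (0.114). The summed list ran from 3804 to 4399.9 in mutants and 2487 to 8218 in controls. Fibroblasts also express Apod and Pmp22, and the part of these cells in those values was not tested. Of 8 hippocampal neuron genes Wfs1 and Fibcd1, both of CA1 pyramidal cells, rose by 0.61 and 0.40, Fibcd1 not passing without mutant replicate 1 (0.0742), mutant replicate 3 (0.059) or control replicate 4 (0.105), and the list median was 0.08. Blood genes had a median of 0.43 and summed to 3489 to 6184 in mutants and 3179.7 to 3579 in controls. None passed the threshold in limma, and 4 of 5 had an unadjusted p under 0.05, against 18.5% of all genes tested. Thalamus genes, a sign of tissue from below the hippocampus where myelin is denser, had a median of 0.18 over the 7 tested, with 0 at an unadjusted p under 0.05 in limma. Their summed value ran from 2189 to 3769 in mutants and 1977 to 2765 in controls. It was highest in mutant replicates 3 and 1, the libraries in which most of the 32 genes were also highest. The part of such tissue in the myelin values was not tested.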

How the data were processed

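Hippocampal RNA was made into stranded mRNA libraries, 1 per animal. The authors trimmed reads with Trim Galore, aligned them to GRCm39 (Gencode vM28) with STAR, quantified them with Salmon, adjusted batches and scaled with DESeq2. The deposited values are a signal in normalised counts per gene. In each library 100% of them were whole multiples (within 0.01) of a step from 0.9934 to 1.004, but mt-Co1 gave 491938 in all 9 libraries, so these are not sequenced reads and count models were not used.

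Groups came from the labels and series from the library names. Genes with a mean of at least 10 were tested on log2(value + 1) with limma 3.58.1 in R 4.3.3 (lmFit, eBayes with trend, terms for genotype and series). Its two-sided p-values were corrected over all 16196 genes tested (Benjamini-Hochberg), and an adjusted p of 0.05 was the threshold. The 32 genes, their roles and the other lists were chosen with earlier results of these data known, so no set test was run and no p is adjusted over a list alone. Values in every library are given for genes past the threshold and for up to 4 more per role with the highest mean. From the other lists, genes past the threshold are named, or else some of the most abundant, besides fixed cell type markers. Some genes of those lists are counted but not reported here by name.

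Coordinates are those of Gencode vM39 on GRCm39, in which 99.5% of the gene IDs were found, and windows were read with pysam 0.24.0 and bedtools 2.31.1. A run of the method on simulated data used independent noise without series or batch differences, so it does not cover these features. Alternatives were pseudocounts of 0.5 and 8, no minimum mean or a minimum of 50, median-of-ratios scaling, quantile normalisation, no series term, 4 name prefixes, replicate numbers as a block, robust eBayes, array quality weights and leaving out each library or, added later, both controls high in choroid plexus genes. Raw reads were not analysed here.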

Additional observations from a re-analysis of the deposited data

Results flagged for a closer look

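In 3 of 74 groups of values, over the 32 genes and the role levels, a library lay farther from the others than the 95% limit of Dixon's test allows, where chance gives about 1 in 20 groups. Mobp was 14998.5 in mutant replicate 4, against 18865 to 19447 in the other mutants. Ermn was 1606 in mutant replicate 2, while the other mutants lay between 1709.7 and 1714. Trf was 4213 in control replicate 1, and the other controls ran from 5053 to 5282.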

How the results depend on the processing

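Of 672 values of the 32 genes under alternatives, 611 kept their direction and side of the threshold, 44 lost a call, 17 gained one and 0 reversed. Without the series term the counts past the threshold were 2260 for all genes tested, 17 for the 32 genes, 3 for transcription factors, 16 for further oligodendrocyte genes and 3 for precursor genes, against 466, 9, 0, 6 and 1. The values had been adjusted for batches before deposit, and the series term charges the degrees of freedom that such an adjustment uses. A fit without the term leaves them uncharged, so its p-values can be too small and its added calls are not equal to those of the main fit. With 4 name prefixes they were 165 for all genes and 3 for further oligodendrocyte genes, and with array quality weights 258 for all genes, 5 for the 32 genes and 3 for structural proteins. With replicate numbers as a block, they were 1405 for all genes, 15 for the 32 genes, 2 for transcription factors and 13 for further oligodendrocyte genes. The numbers were not taken to pair the animals. Deviations of libraries with the same number correlated at -0.39, -0.08, 0.07 and 0.42. Those of other pairs ran from -0.997 (mutant replicate 4 and control replicate 5) to 0.634, so these correlations cannot settle whether the numbers pair animals. The pair at -0.997 makes up all of series C, and the part of the batch adjustment in that value was not tested. Leaving out 1 library gave 42 to 369 for all genes, 2 to 11 for the 32 genes, 1 to 7 for structural proteins, 0 to 1 for transcription factors and 1 to 11 for further oligodendrocyte genes, and a precursor median of 0.0459 to 0.18. With control replicates 2 and 4 both left out, an alternative chosen after seeing the data, the counts were 58 for all genes, 2 for the 32 genes, 1 for structural proteins and 1 for further oligodendrocyte genes, and the precursor median was 0.046. These fits held fewer libraries. Other causes of these shifts were not tested. Mbp passed without the series term (adjusted p = 0.0096), with the block (0.0078) and with robust eBayes (0.0448), and Mobp did not pass with robust eBayes (0.0548), 4 prefixes (0.0757) or array weights (0.0541). The unknown depth limits all values, and series C has 1 library per genotype.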
